A study of Mus musculus with 96 samples.

Results

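The mRNAs of the cytosolic ribosomal proteins were followed in C2C12 cells, a mouse myoblast line that fuses into myotubes in low serum, after mitochondrial respiration or ATP synthesis was inhibited. Genes were taken by name: symbols that begin with Rpl or Rps and continue with a subunit number, with a, or with p0, p1 or p2, leaving out rows named as pseudogenes or kinases. Of 54150 rows in the deposited count table, 83 had such a name, and 77 of these reached a minimum of 16 counts in all replicates of some condition. The 77 genes were 43 of the large subunit, 31 of the small subunit and 3 of the acidic stalk. The other 6 stayed low throughout, and Rpl32l, Rpl6l and Rps4l among them had no coding transcript in the annotation. Rpl3l, the muscle paralog of Rpl3, reached at most 18 counts in a sample, Rpl10l and Rps4l reached 4 and 3, Rpl39l reached 3, Rpl32l 11 and Rpl6l 31. The row nearest the minimum was Rps2, with at least 131 counts in its best condition but under 16 in 6 samples. Next came Rps12 with at least 716.

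RNA-seq had been done on 96 samples in 35 conditions. Proliferating myoblasts were stable lentiviral lines with a doxycycline-inducible (TRE3G) transgene. They expressed luciferase as the control (control myoblasts), LbNOX, a bacterial NADH oxidase placed in the cytosol, mitoLbNOX, the same enzyme sent to mitochondria, or NDI1, a yeast NADH dehydrogenase, and all of them received 300 ng/ml doxycycline. They were given DMSO, 0.5 µM piericidin (an inhibitor of complex I), 0.5 µM antimycin (complex III) or 1 µM oligomycin (ATP synthase) for 10 h, or 20 µg/ml chloramphenicol, which blocks mitochondrial translation, for 48 h. The study states that uridine was present during chloramphenicol treatment, whereas the medium of the 10 h treatments lacked it, and whether the DMSO controls of chloramphenicol had it is not given in the sources used here. Post-mitotic cells, without transgene or doxycycline, had been 1 day in low serum and received DMSO, piericidin or oligomycin for 10 h. Myotubes, after 4 days in low serum, were treated for 10 h. They received DMSO or the 3 inhibitors, 0.5 µM BAM15 (an uncoupler), oligomycin together with piericidin or BAM15, or 5% oxygen with DMSO or oligomycin. The study states that the 5% oxygen began the night before treatment and lasted through it. Other myotubes carried adenoviral GFP or LbNOX and received DMSO, piericidin or oligomycin. Groups held 3 samples, except that the chloramphenicol groups with their DMSO controls, the NDI1 groups and the GFP myotubes held 2. All samples come from 1 cell line, and the labels do not say whether replicates were separate cultures on separate days, so the p-values measure the spread between these samples only.

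Ribosomal proteins, with the ribosomal RNAs, make up the small subunit, which reads the mRNA, and the large subunit, which joins the amino acids. Their mRNAs begin with a C followed by a run of pyrimidines, the terminal oligopyrimidine (TOP) tract, through which mTOR and LARP1 set their translation and stability. Growing myoblasts spend much of their resources on ribosomes, and cells that leave the cell cycle need fewer. A few ribosomal protein genes, Rpl3, Rpl10a and Rpl12 among them, also make splice forms that are not translated into the protein and are degraded. Totals per gene, as here, do not separate these forms.

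The starts of 8 of the genes described here are shown because ribosomal protein mRNAs are known for a tract at the start. All 8 windows hold such a run, which many windows of the family do not. Each is the sense strand of 30 bases around the RefSeq start on GRCm38.p6, of which the first 5 lie before it, and capitals mark the first run of a C followed by at least 4 bases that are each C or T.
Rps6 (chr4:86857343-86857372, minus strand): cgggCCTCTTTTTCgtgacgcctcccaggc
Rps27 (chr3:90213624-90213653, minus strand): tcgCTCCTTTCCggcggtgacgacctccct
Rpl38 (chr11:114668575-114668604, plus strand): tcgttCTTTCCCCgttctcttcggttctca
Rpl12 (chr2:32961707-32961736, plus strand): gatccgtCTTTTCggctttcggctcggagg
Rpl13a (chr7:45128721-45128750, minus strand): gacaagaCCTCCTCCTTTCCCaggcggctg
Rps12 (chr10:23787185-23787214, minus strand): cggccaccgccggCCTTTTCCCCTgccgcc
Rps26 (chr10:128626482-128626511, minus strand): ccgccggatCCTCTTTCgagtcttggctcc
Rps27l (chr9:66946081-66946110, plus strand): ccgccgCCTCTatcccggaagttgctgagg
RefSeq gave such a window for 57 of the 77 genes. The run, searched on the sense strand only, began exactly at the annotated start in 13 of the 57 (22.8%), against 813 of 27025 genes in all (3.01%). Anywhere in the window it was found in 39 (68.4%), against 10397 (38.5%). In Rps6, Rps27, Rpl38 and Rps27l the run began within 2 bases of the annotated start, whereas in Rps12 it lay further in. A match is a description of the letters near an annotated start, not a mapped start site.

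The 77 genes were well covered, but sharing of reads with near-identical copies limited the values of some. The samples held 6458295 to 15366745 counts each (median 10336588.5), of which 196373 to 581787 lay on the 77 genes. Processed copies of ribosomal protein genes fill the mouse genome, and 552 rows of the annotation matched a coding sequence of the 77 at 95% identity or more over at least 70% of its length; 71 of the 77 genes had at least 1 such copy. Of the counts on a gene and its copies together, 36 genes kept at least 95%, but 17 kept under 50% and 7 under 20%. These 7 were Rps2 (0.82%), Rpl5 (5.23%), Rps12 (6.81%), Rpl12 (7.61%), Rpl10 (15.57%), Rpl27 (17.21%) and Rpl35 (17.92%). For Rps2, nearly all counts lay on a pseudogene row, and for Rpl12 on a row whose sequence is identical to its coding sequence. Values of these genes are therefore uncertain as single rows, and for most of them the sum of the row and its copies is given as well.

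The share of all counts that lay on the 77 genes was lower in differentiated cells and higher in most inhibited groups. In DMSO it was 3.99% ± 0.163 (SD, n = 3) in control myoblasts, 3.29% ± 0.0881 (n = 3) in post-mitotic cells and 2.72% ± 0.0799 (n = 3) in myotubes. In control myoblasts piericidin gave 4.37% ± 0.119, antimycin 4.43% ± 0.161 and oligomycin 4.64% ± 0.088 (n = 3 each). The 3 DMSO samples lay between 3.89% and 4.18%, and the lowest of the treated samples stood at 4.24%, so that none overlapped. All 3 DMSO samples lay in outer plate wells, against 1 of the piericidin, 0 of the antimycin and 1 of the oligomycin samples. Well position and treatment cannot be fully told apart here. In LbNOX myoblasts the share was 4.07% ± 0.168 in DMSO and 4.61% ± 0.0256 under oligomycin, while piericidin gave 4.21% ± 0.133 and antimycin 4.03% ± 0.0648 (n = 3 each), and here only the oligomycin samples lay above all DMSO samples. In myotubes DMSO ran from 2.64% to 2.80%, and the samples with piericidin (2.85% to 3.04%), antimycin (2.81% to 3.05%) and BAM15 (2.99% to 3.16%) all lay above it. With oligomycin replicate 2 stood at 2.69%, within the DMSO range, and the other 2 samples at 3.23% and 3.30%. Counted with their copies, the genes took 5.30%, 4.38% and 3.68% of the counts in the 3 cell states in DMSO.

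**Figure D1:**
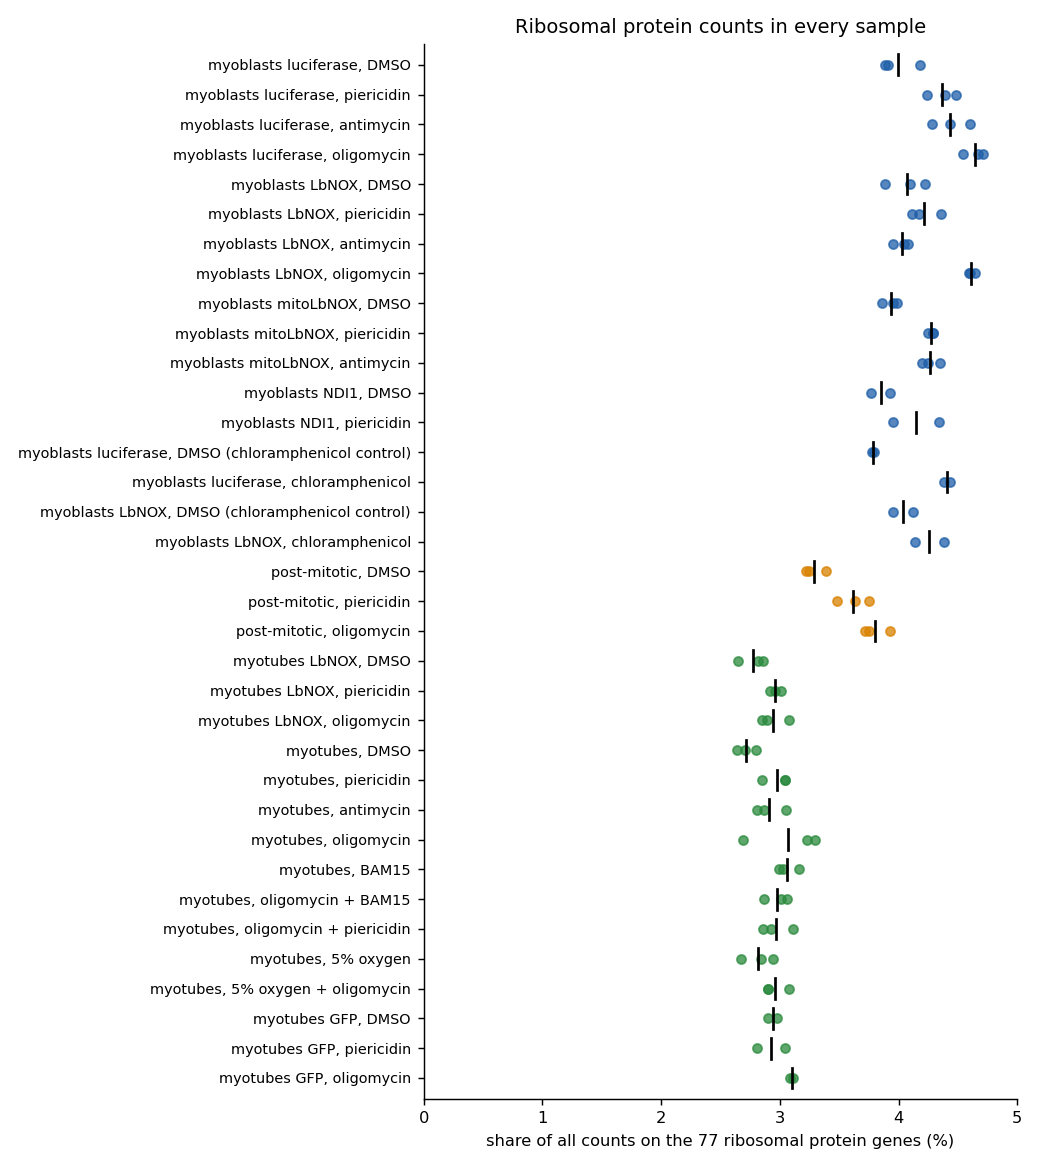
Share of all counts on the 77 ribosomal protein genes, in percent, for each of the 96 samples (points) by condition, with the group mean as a bar and the cell state as colour. The share was highest in oligomycin-treated myoblasts (4.64% in control and 4.61% in LbNOX myoblasts) and lowest in DMSO myotubes (2.72%).

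Levels were compared between genes per length of coding sequence. In control myoblasts in DMSO, counted with copies, Rpl41, the smallest ribosomal protein, stood at 3390 CPM (counts scaled to a common library total) per kilobase, Rpsa, a small-subunit protein also known as a laminin receptor, at 2900 and the stalk protein Rplp0 at 2400. The lowest were Rpl38 at 381, Rps27l, a paralog of Rps27, at 489 and Rpl22 at 506. Untranslated parts are not measured in this length, and the order of the genes depends on it. Rpl41 has a coding length of 138 bases beside a median transcript of 526.5, and Rpl22 384 beside 2048.

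In control myoblasts most ribosomal protein mRNAs rose with each of the 3 inhibitors. With edgeR's quasi-likelihood test at an adjusted p of 0.05, 61 of the 77 rose and 5 fell with piericidin, 66 rose and 1 fell with antimycin, and 58 rose and 2 fell with oligomycin. These comparisons share the same DMSO samples, all of them in outer plate wells. Of all genes tested, 30.9% rose and 30.8% fell with piericidin, 32.1% and 31.1% with antimycin, and 24.5% and 26.3% with oligomycin. The median log2 fold change of the 77 was 0.37, 0.40 and 0.33, beside 0.00, 0.00 and -0.01 over all genes. Both subunits and the stalk took part: with antimycin, 37 of 43 large-subunit, 26 of 31 small-subunit and all 3 stalk mRNAs rose, with medians of 0.43, 0.39 and 0.47. Summed with their copies, 60 rose and 3 fell with piericidin, 67 and 0 with antimycin, and 59 and 1 with oligomycin. The mRNAs of 78 mitochondrial ribosomal proteins, which are named Mrpl and Mrps, divided differently: 34 rose and 18 fell with piericidin, and their median was 0.13.

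Most changes were small, with log2 fold changes from 0.20 (lower quartile) to 0.47 (upper quartile) under piericidin and from 0.30 to 0.52 under antimycin, but a few large-subunit mRNAs changed more. Rpl10a (ENSMUSG00000037805, chr17:28328471-28331033, GRCm38.p6), which forms the mobile L1 stalk of the large subunit, stood at 497, 522 and 539 CPM in the DMSO samples, at 870, 883 and 888 with piericidin, at 1100, 1120 and 1130 with antimycin and at 745, 769 and 793 with oligomycin. The 4 groups did not overlap, and antimycin was the highest. The log2 fold changes were 0.78 ± 0.04 (SE, adjusted p = 4.2e-16), 1.14 ± 0.04 (3.8e-20) and 0.56 ± 0.04 (1.4e-12) in edgeR's test. Rpl3 (ENSMUSG00000060036, chr15:80077791-80091868), whose protein reaches toward the peptidyl transferase centre, was at 742, 761 and 801 CPM in DMSO and at 1420, 1500 and 1540 with antimycin. Its log2 fold change with antimycin was 0.99 ± 0.04 (adjusted p = 2.1e-19), and 0.93 with copies included, its own row holding 50.42% of the summed counts. Rpl13a (ENSMUSG00000074129, chr7:45125558-45128761) went from 354, 383 and 393 CPM to 619, 633 and 643 with piericidin, a log2 fold change of 0.76 ± 0.05 (adjusted p = 1.9e-13), and nearly all of its counts (99.87%) lay on its own row. Rpl10a kept a log2 fold change of 0.71 with piericidin and 1.02 with antimycin once its copies were added.

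Rpl12 (ENSMUSG00000038900, chr2:32961559-32965345), which sits at the base of the stalk, had the largest change of any member with all 3 inhibitors, but mostly as a single row. The row rose from 54.5, 55.8 and 57.7 CPM to 248, 260 and 265 with piericidin, to 223, 239 and 248 with antimycin and to 123, 128 and 141 with oligomycin. As log2 fold changes these were 2.22 ± 0.09, 2.11 ± 0.09 and 1.22 ± 0.09 (adjusted p = 5.5e-19, 1.6e-18 and 1.3e-12). Summed with its 7 copies, Rpl12 stood at 872, 882 and 917 CPM in DMSO, at 1510, 1520 and 1520 with piericidin and at 1560, 1590 and 1680 with antimycin. The log2 fold changes of the sum were 0.75, 0.84 and 0.59, among the larger ones of the family. The Rps2 row, at 3.28, 4.95 and 5.75 CPM in DMSO and at 8.11, 21.8 and 31.0 with piericidin, held too few of its counts to give a value for the gene; its log2 fold change was 2.13 as a row and 1.89 as a sum. Rps12, of the small-subunit beak, rose by 0.64 ± 0.11 with oligomycin as a row (adjusted p = 9.5e-06) and by 0.45 as a sum.

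**Figure D2:**
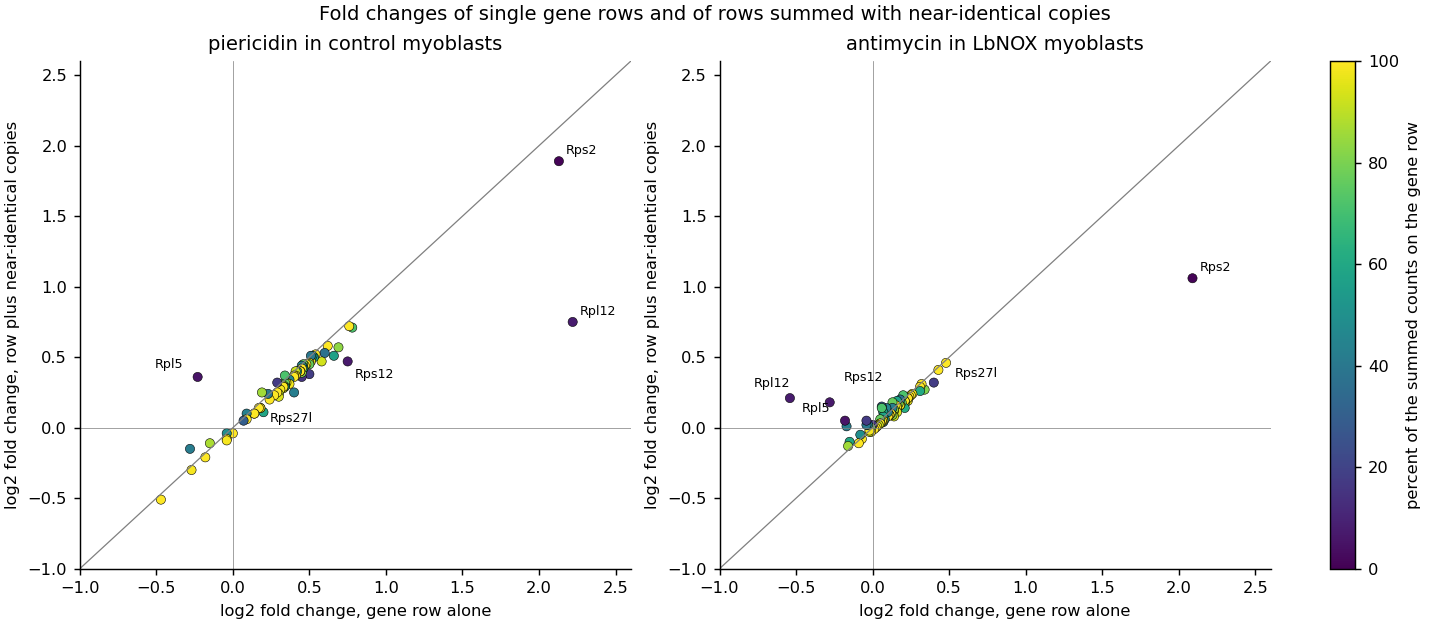
Log2 fold change of each of the 77 genes as a single row (horizontal axis) and summed with its near-identical copies (vertical axis), with piericidin in control myoblasts and with antimycin in LbNOX myoblasts; colour gives the percent of the summed counts on the gene's own row and the diagonal marks equal values. Most genes lie near the diagonal, whereas Rpl12 moved from 2.22 to 0.75 and Rpl5 from -0.23 to 0.36 with piericidin.

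The genes listed by role mostly rose as well. With antimycin the stalk mRNAs Rplp0, Rplp1 and Rplp2 rose by 0.47, 0.48 and 0.34 on the log2 scale, with adjusted p-values of 4.1e-15, 9.5e-07 and 0.0021. Rplp0 is often used as a reference gene, and it went from 2220, 2290 and 2310 CPM in DMSO to 3010, 3060 and 3180 with antimycin. Rps6, the target of S6 kinase, rose by 0.60 with antimycin and by 0.69 with piericidin (adjusted p = 9.9e-13 and 4.6e-14), from 839, 853 and 863 CPM to 1230, 1240 and 1320 and to 1340, 1350 and 1380. Rps14 and Rps19, both mutated or lost in human anaemias, rose by 0.47 and 0.40 with antimycin, Rps27a, a ubiquitin fusion, by 0.39, Rpl22 by 0.56 and Rpsa by 0.42. Rpl39 (0.17, adjusted p = 0.17) and Rps27l (0.16, adjusted p = 0.13) did not pass the test with antimycin. Rpl11, which with Rpl5 binds the 5S RNA and can bind Mdm2, had 0.19 with antimycin (adjusted p = 0.0064) but -0.04 with piericidin (adjusted p = 0.61).

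The members that fell were few. With piericidin they were Rpl37a (-0.47 ± 0.12, adjusted p = 9.8e-04), Rps26 (-0.28, 0.027; as a sum -0.15, 0.12), Rpl36a (-0.27, 0.020), Rpl5 (-0.23, 0.0059) and Rpl13 (-0.15, 0.0050). Rpl37a, a zinc-binding protein of the large subunit, stood at 267, 274 and 315 CPM in DMSO and at 191, 209 and 212 with piericidin, without overlap. Rpl37a also fell with oligomycin (-0.30, adjusted p = 0.029), and its fall with piericidin was as large with copies (-0.51). For Rpl5 the sum had the opposite sign in each comparison in which its row fell, though not always past the test. The row held 59.1, 61.7 and 64.8 CPM in DMSO and 47.6, 50.4 and 57.9 with piericidin, but with copies Rpl5 stood at 1370, 1400 and 1410 in DMSO and at 1810, 1810 and 1820 with piericidin, a log2 fold change of 0.36 (adjusted p = 3.4e-10). Rpl27 was the 1 member to fall with antimycin (-0.33 ± 0.06, adjusted p = 7.4e-06), and its sum gave 0.11 (adjusted p = 0.13).

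With total counts in place of TMM scaling the median of all genes moved by -0.24, -0.30 and -0.15 under piericidin, antimycin and oligomycin. The counts of members then were 36 higher and 12 lower with piericidin, and 36 and 6 with antimycin, where Rpl11 and Rps4x turned negative (-0.10 each). The members' medians fell with it to 0.13, 0.10 and 0.20. Antimycin replicate 1 was lower than the other 2 samples for Rps26, at 152 CPM beside 207 and 214, and for Rpl38, at 74.1 beside 107 and 112. Of the 4 proliferation markers, Mki67, Top2a, Cdk1 and Ccnb1, all fell with antimycin (median -0.78), 3 fell and 1 rose with piericidin, and 3 fell with oligomycin; their part in the result was not tested. As in any bulk sample, fewer cells of a kind and less RNA per cell cannot be told apart.

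**Figure D3:**
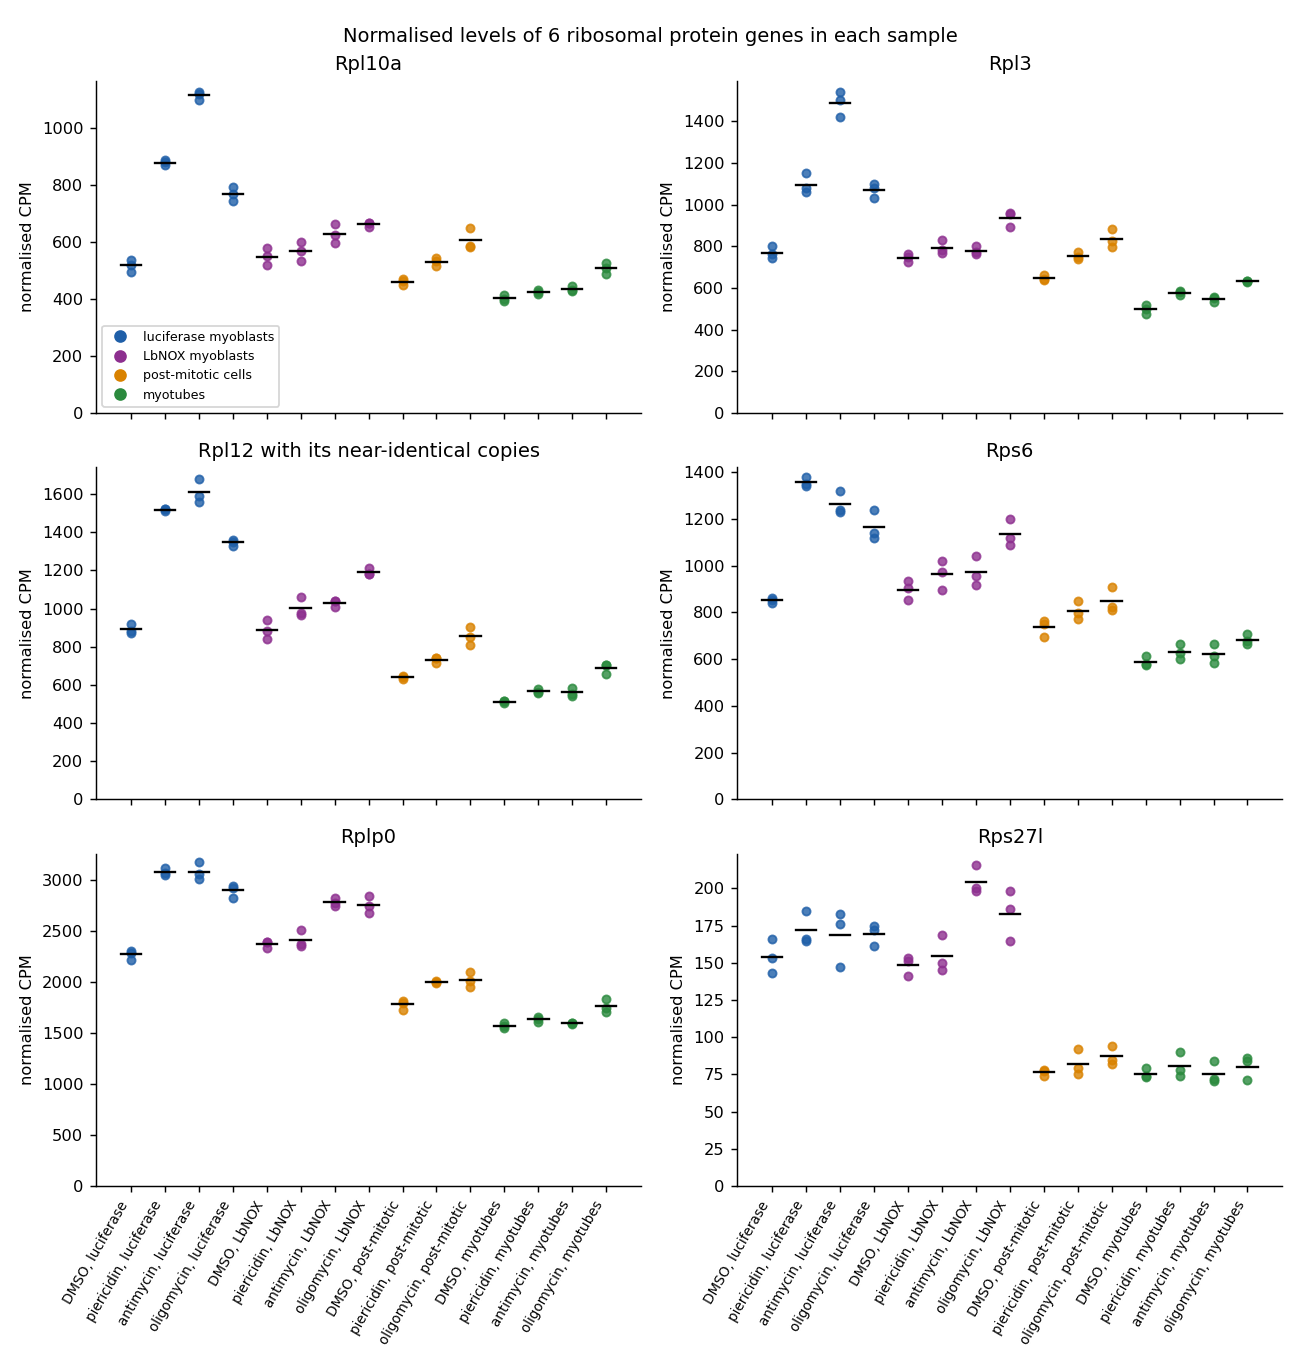
Normalised level in CPM of 6 ribosomal protein genes by treatment in control (luciferase) and LbNOX myoblasts, post-mitotic cells and myotubes (points are samples, bars are means, and Rpl12 is summed with its copies). With antimycin, Rpl10a stood at 1100 to 1130 in control myoblasts but at 596 to 663 in LbNOX myoblasts.

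LbNOX myoblasts, in which the transgene oxidises cytosolic NADH, were given the same 3 inhibitors. In DMSO 0 members passed edgeR's test between LbNOX and control myoblasts, 5 had an unadjusted p under 0.05, DESeq2 called 0, and 1.3% and 1.38% of all genes were higher and lower. Piericidin raised 20 members and lowered 1 (all genes 5.01% and 3.86%, median of members 0.17). Antimycin raised 30 and lowered 6 (all genes 23.3% and 22.9%, median 0.11 beside 0.03 for all genes, and -0.02 on total counts). Oligomycin raised 71 and lowered 1 (all genes 17.5% and 17.7%, median 0.34). These 3 comparisons share the LbNOX DMSO samples, and the 1 that fell with piericidin and with oligomycin was the Rpl5 row, whose sums gave 0.10 and 0.38. The count was 2 with piericidin and 15 with antimycin when the libraries numbered 2 were left out, and 7 with piericidin when those numbered 1 were. With piericidin it was also 3 on total counts and 5 when only the LbNOX DMSO and piericidin groups were fitted. Sums with copies gave 21 rises with piericidin, and the count was higher without a count filter or without the libraries numbered 3.

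With antimycin in LbNOX myoblasts the largest rises were those of Rps2, Rps27l, Rpl18 and Rpl35. Rps27l (ENSMUSG00000036781, chr9:66946086-66949516), described as a p53 target, stood at 141, 151 and 153 CPM in DMSO and at 198, 200 and 216 with antimycin, a log2 fold change of 0.48 ± 0.09 (adjusted p = 7.6e-05). Rpl18 and the Rpl35 row rose by 0.43 and 0.40 (adjusted p = 3.0e-09 and 0.0029), the sum of Rpl35 by 0.32, and the Rps2 row by 2.09, its sum giving 1.06 (adjusted p = 0.15). Rpl12 and Rps12 fell as rows (-0.54 and -0.28, adjusted p = 1.6e-05 and 0.036) but rose as sums (0.21 and 0.18, adjusted p = 4.7e-05 and 0.020). Rpl7a fell by 0.16 on the log2 scale (adjusted p = 2.0e-04) and the Rpl5 row by 0.18. The division of calls depended on scaling, with 8 higher and 17 lower on total counts and 12 and 15 after a trend with transcript length was removed. With oligomycin the largest rises were Rpl38 (0.62 ± 0.14), Rpl12 (0.56 ± 0.09), Rpl35 (0.53 ± 0.11) and Rps15a (0.49 ± 0.10), with adjusted p-values of 5.7e-04, 9.3e-06, 2.1e-04 and 1.6e-04. The sums of Rpl12, Rpl35 and Rps15a rose by 0.43, 0.47 and 0.40.

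The response to an inhibitor was then compared between LbNOX and control myoblasts with an interaction term. For piericidin, 37 members had a lower and 6 a higher response in LbNOX myoblasts (all genes 22.0% and 22.3%), with a median difference of -0.20 on the log2 scale. For antimycin, 51 were lower and 2 higher (all genes 26.8% and 24.7%), with a median of -0.28. For oligomycin, 4 were lower and 0 higher (all genes 4.18% and 3.80%), with a median of -0.01. Among the 4 were the rows of Rpl12 (-0.66), Rpl10a (-0.28) and Rplp0 (-0.13), whose sums gave -0.16, -0.20 and -0.13 (adjusted p = 0.069, 0.0058 and 0.090), and without the libraries numbered 1 none was called. On total counts the divisions were 18 lower and 11 higher for piericidin and 27 lower and 2 higher for antimycin.

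Rpl10a and Rpl3 differed by close to 1 log2 unit. With antimycin, Rpl10a in LbNOX myoblasts stood at 596, 624 and 663 CPM beside 519, 551 and 580 in DMSO, and Rpl3 at 762, 773 and 802 beside 724, 750 and 765. Against folds of 2.20 and 1.98 in control myoblasts, the differences in response were -0.93 ± 0.06 for Rpl10a and -0.91 ± 0.06 for Rpl3 (adjusted p = 4.9e-14 and 1.8e-14). For piericidin Rpl10a differed by -0.72 ± 0.06 and Rpl13a by -0.59 ± 0.08 (adjusted p = 2.3e-11 and 1.6e-07). The Rpl12 row differed by -2.12 and -2.66 for the 2 inhibitors and its sum by -0.57 and -0.62. Rps12 differed by -0.75 and -0.96 as a row and by -0.29 and -0.30 as a sum.

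Some members had the opposite difference. Rpl37a (0.71 ± 0.16), Rps26 (0.51 ± 0.15), Rpl36a (0.40 ± 0.14) and Rpl41 (0.40 ± 0.16) had a higher response to piericidin in LbNOX than in control myoblasts, with adjusted p-values of 7.6e-04, 0.0069, 0.020 and 0.037. For antimycin Rps27l (0.32, adjusted p = 0.041) and the Rpl27 row (0.29, adjusted p = 0.0029) did so, the sum of Rpl27 giving -0.06.

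**Figure D4:**
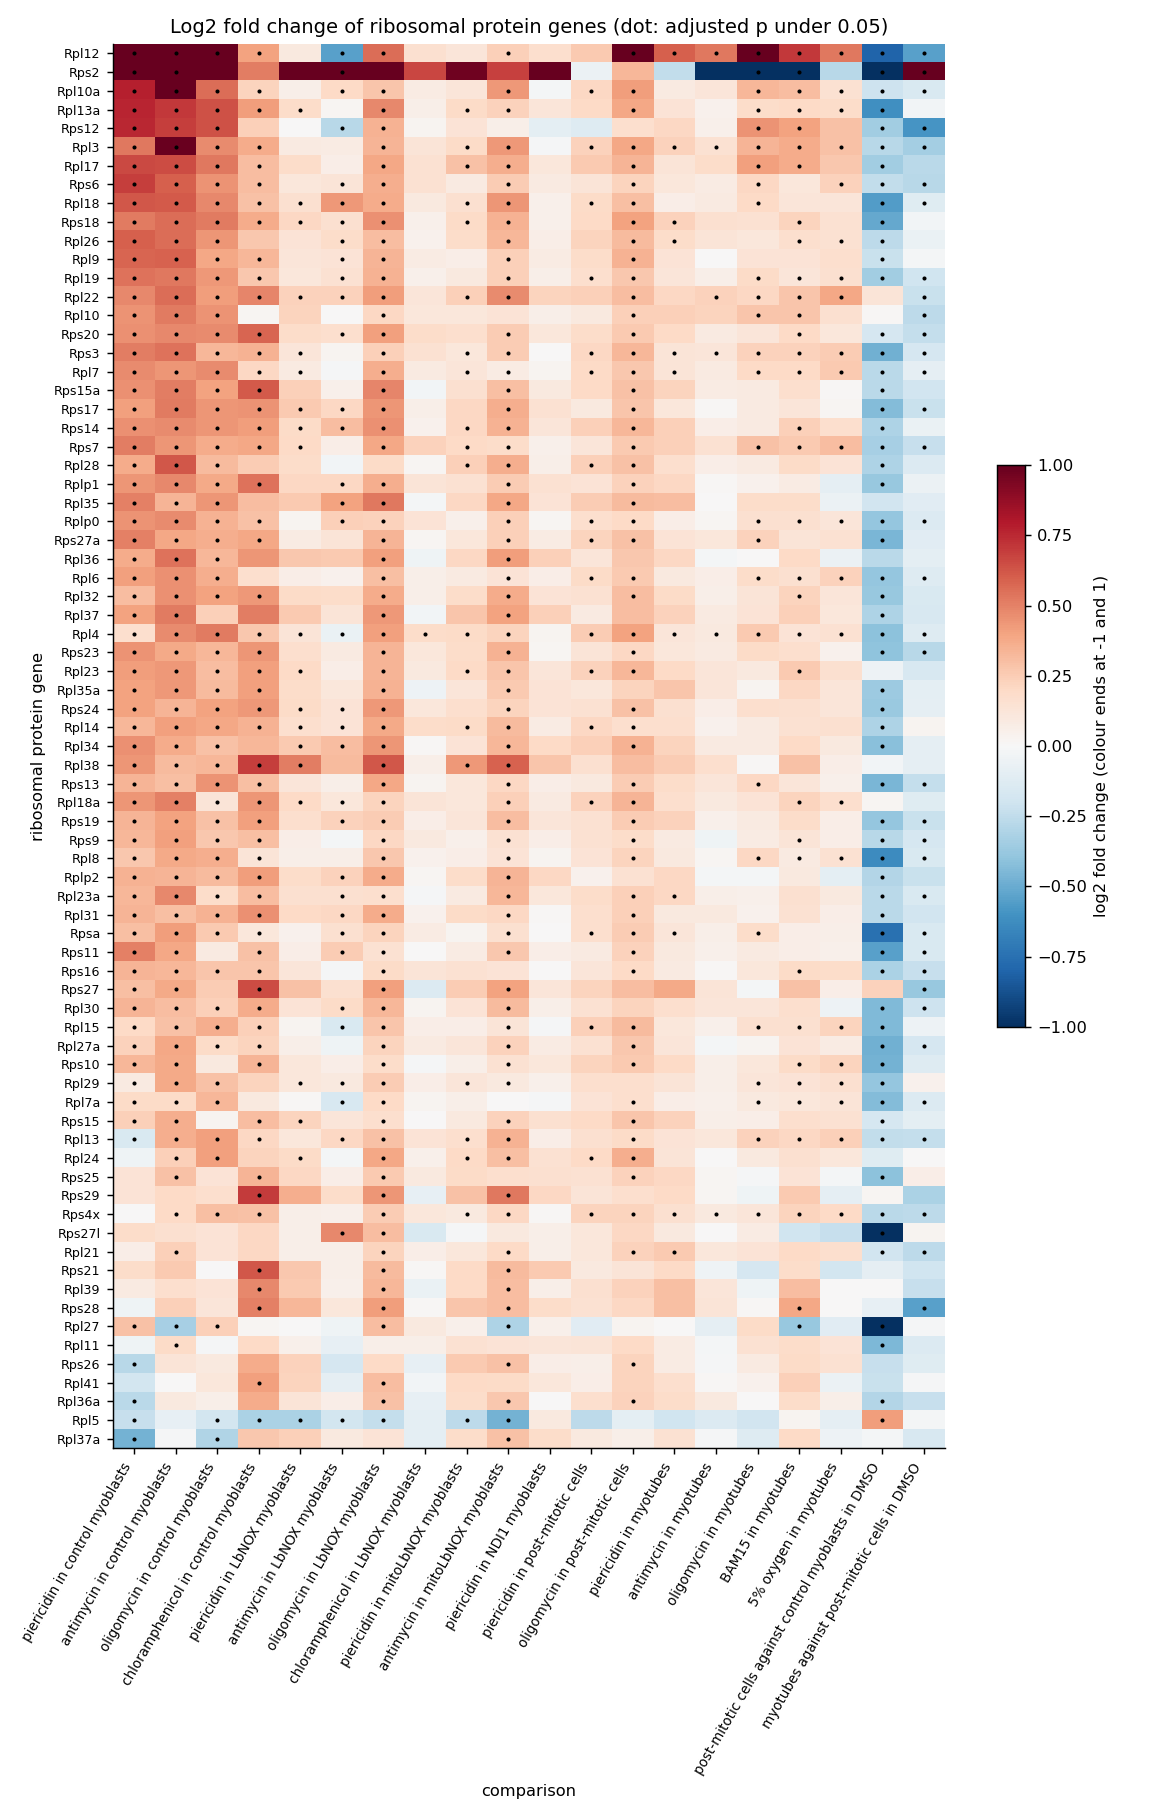
Log2 fold change of the ribosomal protein genes named on the vertical axis (lines, ordered by their mean change in control myoblasts) in 20 comparisons (columns), on a colour scale that ends at -1 and 1, with a dot where the adjusted p was under 0.05. Most lines are red (positive) for the inhibitors in control myoblasts, paler for piericidin and antimycin in LbNOX myoblasts, and blue (negative) for post-mitotic cells against control myoblasts.

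The other NADH-oxidising lines were treated with piericidin and, for mitoLbNOX, antimycin. With mitoLbNOX, piericidin raised 22 members and lowered 1 (all genes 6.37% and 4.82%, median 0.16), and antimycin raised 66 and lowered 2 (all genes 24.8% and 22.9%, median 0.25). Among the largest rises with antimycin were Rpl38 (0.59), Rps29 (0.53) and Rpl22 (0.47), with adjusted p-values of 7.0e-04, 9.6e-04 and 1.9e-06. The 2 that fell were the rows of Rpl27 (-0.31) and Rpl5 (-0.47), whose sums gave 0.06 and 0.18. The sums with copies left 15 members called with piericidin, and leaving out the libraries numbered 1, 2 or 3 left 6, 7 or 15. On total counts 35 members rose and 3 fell with antimycin. In NDI1 myoblasts, which have a complex I bypass that piericidin does not inhibit, piericidin changed no member by edgeR or DESeq2 with the count filter. There, 2 members had an unadjusted p under 0.05, the median was 0.08, and 0.00835% and 0% of all genes rose and fell. The NDI1 groups held 2 samples each, with 2 of the DMSO and 0 of the piericidin samples in outer plate wells. Whether their response differed from that of control myoblasts was not tested.

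Chloramphenicol raised 56 members and lowered 1 in control myoblasts after 48 h (all genes 4.83% and 3.62%), with a median log2 fold change of 0.34 beside 0.01 for all genes. Rps29, a small zinc-binding protein of the small subunit, went from 121 and 147 CPM to 206 and 227 (0.70 ± 0.14, adjusted p = 0.016), and Rps27 from 115 and 133 to 186 and 199 (0.65 ± 0.13, adjusted p = 0.020). Rpl38 and Rps21 rose by 0.69 and 0.62 (adjusted p = 0.040 and 0.033). Groups did not overlap in any of these 4, and the 1 that fell was the Rpl5 row (-0.32, sum 0.33). Summed with copies, 71 rose and 0 fell. The share of counts was 4.40% ± 0.0313 (n = 2) with chloramphenicol and 3.78% ± 0.0047 (n = 2) in the DMSO samples. With 2 samples a group, the count fell to 24 without the libraries numbered 1 and to 13 without those numbered 2.

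In LbNOX myoblasts chloramphenicol raised 3 members, Rpl4 (0.18) among them, and lowered 0 (all genes 0.675% and 0.256%). Rpl4 stood at 1560 and 1640 CPM in DMSO and at 1790 and 1830 with chloramphenicol, an adjusted p of 0.030 in edgeR's test. The median of members was 0.06, and Rps29 overlapped between the groups, its samples all lying between 151 and 197 CPM. None was called when the libraries numbered 1 or 2 were left out, with the replicate number as a block, with plate well as a term, on total counts or when the DMSO and chloramphenicol LbNOX groups were fitted alone. Sums with copies also gave 3, and DESeq2 and a fit without a count filter called more. The difference between the lines was not tested.

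**Figure D5:**
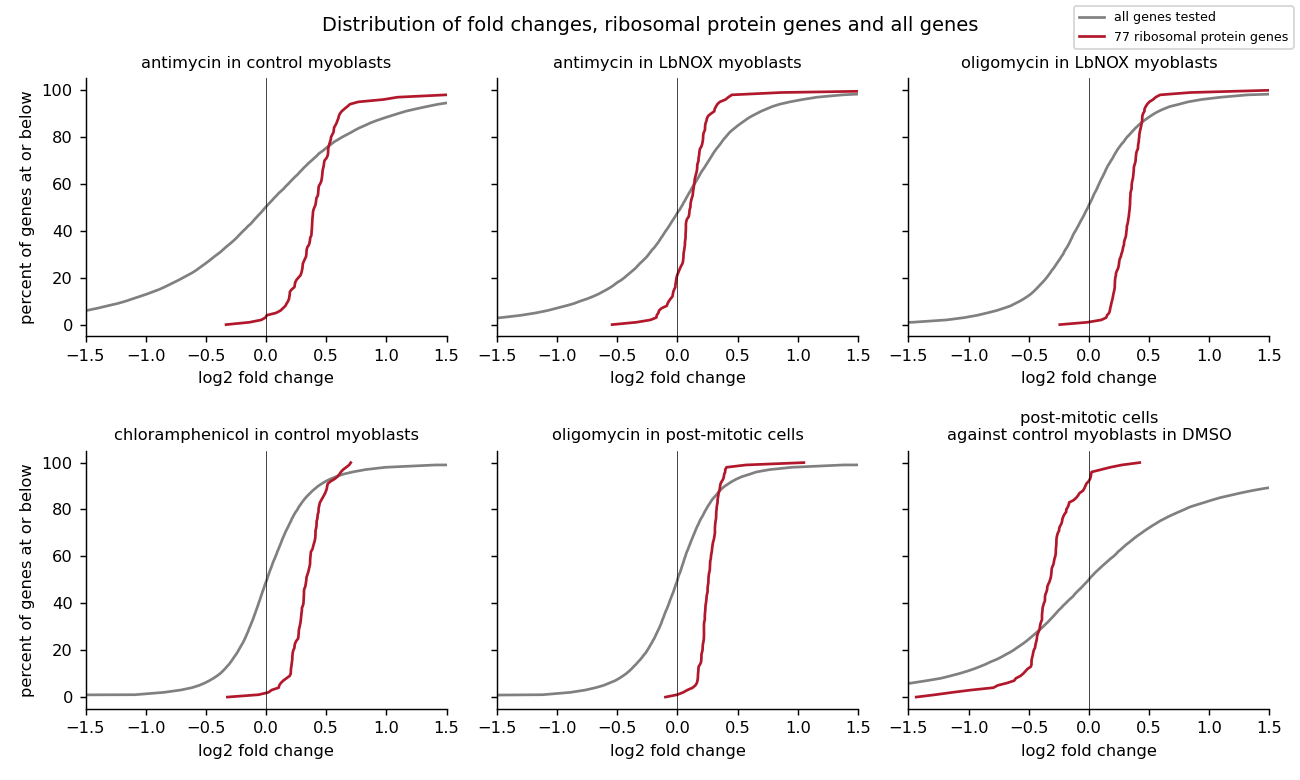
Cumulative percent of genes at or below a log2 fold change (horizontal axis), for the 77 ribosomal protein genes and for all genes tested, in 6 comparisons. The ribosomal protein curves are steep and in most panels with an inhibitor lie mostly to the right of 0. In control myoblasts the medians were 0.40 (antimycin) and 0.34 (chloramphenicol). They were 0.34 with oligomycin in LbNOX myoblasts and 0.26 with oligomycin in post-mitotic cells. With antimycin in LbNOX myoblasts the median was 0.11, and 60 of the 77 genes lay above 0. In post-mitotic cells against control myoblasts the curve lies to the left, at -0.32.

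In post-mitotic cells oligomycin raised 57 members and lowered 0 (all genes 10.6% and 10.1%), with a median of 0.26. Rpl4, a large-subunit protein that lines the exit tunnel, rose by 0.40 ± 0.03 (adjusted p = 2.1e-06), and Rps18 by 0.40 ± 0.05 (2.7e-04). Rpl10a went from 451, 463 and 470 CPM to 585, 588 and 651 (0.42 ± 0.05, adjusted p = 4.8e-05), and Rpl3 from 637, 643 and 662 to 798, 824 and 882 (0.39 ± 0.04, 4.2e-05). Neither gene overlapped between groups. The Rpl12 row rose by 1.05 and its sum by 0.43. Piericidin raised 20 members and lowered 0 (all genes 1.39% and 1.36%), with a median of 0.17, a highest log2 fold change of 0.26 and Rpl4 at 0.25. DESeq2 called 35, and without the libraries numbered 1, 2 or 3 edgeR called 4, 1 or 1.

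In myotubes fewer members passed the test with piericidin, antimycin and oligomycin than in control myoblasts. Whether responses differed between myotubes and post-mitotic cells was not tested. Piericidin raised 12 and lowered 0 (all genes 4.15% and 4.84%), antimycin 6 and 0 (6.64% and 6.27%), oligomycin 28 and 1 (16.9% and 16.4%) and BAM15 34 and 2 (13.2% and 12.2%), against the same DMSO samples. Their medians were 0.17, 0.07, 0.12 and 0.18. With oligomycin the largest rises were in the Rpl12 row (1.3 ± 0.10, sum 0.42), the Rps12 row (0.45 ± 0.13, sum 0.13), Rpl17 (0.41 ± 0.12) and Rpl3 (0.34 ± 0.04). Rpl3 stood at 474, 501 and 517 CPM in DMSO, at 630, 632 and 635 with oligomycin and at 628, 629 and 659 with BAM15. Both treated groups lay above all DMSO samples, with adjusted p-values of 1.1e-07 and 5.6e-08. With BAM15 Rps28 rose by 0.39 ± 0.14 (adjusted p = 0.045) and the Rpl27 row fell by 0.38 on the log2 scale, its sum giving 0.00. The Rps2 row, of few counts, fell with oligomycin and BAM15. Oligomycin left 14 members called when the libraries numbered 1 were left out, piericidin left 4 to 8, antimycin 2 or 3, and BAM15 left 13 to 16 whichever number was left out. For piericidin, sums with copies gave 23 rises, and the count was also higher without a count filter, with only the groups compared and with DESeq2.

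Myotubes were also kept in low oxygen, from the night before treatment on, or given combined treatments. In 5% oxygen 23 members rose and 0 fell (all genes 12.3% and 9.78%, median 0.12), with Rpl22 at 0.39 and Rpl3 at 0.29 (adjusted p = 1.4e-04 and 1.6e-06). The count was 7 higher and 1 lower on total counts, and 12 or 14 members were called when the libraries numbered 1 or 2 were left out. The 4 proliferation markers fell there (median -2.45), and their part in the result was not tested. Against oligomycin alone, 8 members fell and 0 rose when piericidin was added (all genes 12.4% and 8.46%), 10 fell and 0 rose when BAM15 was added (14.1% and 12%), and 6 fell and 3 rose when oxygen was lowered (16.5% and 16.7%). Rpl4 fell in each, by 0.11, 0.14 and 0.11 on the log2 scale, and the Rpl12 row by 0.65, 0.61 and 0.89, its sum by 0.26, 0.25 and 0.16. The 3 that rose in low oxygen were Rps10, Rpl23a and Rps4x, by 0.19, 0.18 and 0.08. These comparisons share the oligomycin samples, and their counts were 5, 6 and 5 when the libraries numbered 3 were left out.

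Oligomycin was also given to myotubes with adenoviral transgenes. With GFP 29 members rose and 2 fell (all genes 13.8% and 12.1%, median 0.13), and with LbNOX 18 rose and 0 fell (16.6% and 15.4%, median 0.08). Rpl10a rose by 0.38 with GFP and 0.26 with LbNOX, and Rpl4 by 0.31 and 0.26. The 2 that fell with GFP were Rps21 (-0.27) and Rpl37a (-0.26). The sums with copies gave 30 rises with LbNOX. The GFP count was 8 without libraries numbered 1, and the LbNOX count was 9 without those numbered 2.

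Calls with oligomycin were set side by side over 4 settings with separate controls, namely control myoblasts, LbNOX myoblasts, post-mitotic cells and myotubes. Of the 77 genes 26 rose in all 4, 25 in 3, 13 in 2, 9 in 1 and 4 in none, while of the 11089 genes tested in all 4 settings 670 (6.04%) rose in all of them. The 26 were 44.8%, 36.6%, 45.6% and 92.9% of the members that rose in each setting. They included the stalk protein Rplp0, the peptidyl transferase protein Rpl3, the tunnel protein Rpl4, Rpl10a, Rpl13a, Rps6, Rps4x, Rps27a and Rpsa. The 4 that rose in none were Rpl11, Rpl37a and the rows of Rpl5 and Rps2.

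Without inhibitors the ribosomal protein mRNAs fell as the cells left the cell cycle. Between DMSO-treated post-mitotic cells and control myoblasts 60 members were lower and 1 higher (all genes 32.3% and 31.3%), with a median of -0.32 beside 0.00 for all genes. The large subunit had 31 of 43, the small subunit 26 of 31 and the stalk 3 of 3 lower. Of the 78 mitochondrial ribosomal proteins 52 were lower and 4 higher, with a median of -0.32. From post-mitotic cells to myotubes 35 members were lower and 1 higher (all genes 16% and 19.6%, median -0.15), whereas 6 mitochondrial ones were higher and 3 lower. Summed with copies, this second step had 49 lower, and it had 20 members called when the libraries numbered 1 were left out.

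The largest falls included genes with most counts on their own row. Rpsa went from a mean of 2290 CPM ± 44.2 (SD, n = 3) in myoblasts to 1380, 1410 and 1420 in post-mitotic cells and 1200, 1230 and 1260 in myotubes, with log2 fold changes of -0.75 ± 0.03 and -0.15 in the 2 steps (adjusted p = 2.4e-20 and 5.6e-05). Rps27l stood at 143, 153 and 166 CPM, then at 74.1, 77.1 and 78.1 (-1.05 ± 0.09, adjusted p = 5.4e-11), and at 73.5, 73.9 and 79.2 in myotubes, where it overlapped post-mitotic cells (0.03, adjusted p = 0.85). The parent gene Rps27 did not pass the first step (0.23, adjusted p = 0.18) and fell in the second (-0.38, adjusted p = 0.044). Rpl8 and Rpl13a fell by 0.63 and 0.61 in the first step, and the Rpl27 row by 1.23, its sum by 0.50. The 1 higher row was Rpl5 (0.42), whose sum was lower (-0.26). The Rpl12 row gave -0.80 and its sum -0.47. The rows of Rpl10, Rpl22 and Rpl39 did not pass, at 0.01, 0.13 and 0.00, and the sum of Rpl10 gave 0.06 (adjusted p = 0.19). In the second step the row of Rps2 was higher (2.28, sum 1.87), and Rps12 (-0.59, sum -0.38), Rpl12 (-0.54, sum -0.33), Rps28 (-0.54) and Rps27 (-0.38) were lower.

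The markers moved with the states. All 4 proliferation markers fell in post-mitotic cells (-2.41 to -2.75). All 5 muscle markers rose, and 4 of them were under the count minimum in the myoblast conditions. Adipoq, Plin1, Fabp4, Ptprc and Cdh5, markers of fat, blood and endothelial cells, passed the count minimum in no comparison. Pecam1, an endothelial marker, passed the minimum but not the test in any of them. Cd68, a macrophage and lysosome marker, stood at 0.825, 0.900 and 1.09 CPM in control myoblasts in DMSO and at 5.39, 5.83 and 6.18 with antimycin (2.65, adjusted p = 4.3e-07). It rose with antimycin in LbNOX and mitoLbNOX myoblasts too (2.57 and 3.35), and in myotubes with piericidin, antimycin, oligomycin, BAM15 and 5% oxygen (1.05 to 1.67), but did not pass with piericidin or oligomycin in control myoblasts (0.46 and -0.30). It was lower in post-mitotic cells (-1.20, adjusted p = 0.013) and higher in myotubes than in these (1.19, adjusted p = 0.027). The part of the markers in the results was not tested. The control myoblasts differ from the post-mitotic cells also by lentiviral luciferase, doxycycline and serum, which cannot be told apart from the state.

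The response to inhibitors was lower in myotubes than in control myoblasts for many members. These cells differ also by lentiviral luciferase, doxycycline and serum, which cannot be told apart from the state. With an interaction term, the response of 25 members to piericidin was lower and of 5 higher (all genes 21.3% and 25.2%, median -0.15 beside 0.07 for all genes). The 5 were Rpl37a (0.66), Rpl36a (0.50), Rps26 (0.40), Rpl13 (0.33) and Rps4x (0.21), and the sum of Rps26 gave 0.20 (adjusted p = 0.18). Summed with copies, 40 were lower and 4 higher (median -0.24). For antimycin 46 were lower and 0 higher (22.5% and 25.4%, median -0.29 beside 0.06), and for oligomycin 27 and 0 (13.2% and 15.8%, median -0.19 beside 0.04). For antimycin Rpl10a differed by -0.97 ± 0.05, Rpl3 by -0.79 ± 0.06 and Rpl12 by -1.54 as a row and -0.74 as a sum, with adjusted p-values of 5.1e-15, 2.8e-12 and 1.3e-11. In myotubes with antimycin Rpl10a stood at 430, 433 and 445 CPM beside 394, 402 and 414 in DMSO. On total counts the median of all genes moved by 0.23, 0.34 and 0.19, the piericidin median of members turned to 0.02, and the divisions were 11 lower and 12 higher, 8 and 3, and 2 and 1. The counts were 25 for antimycin and 8 for oligomycin when the libraries numbered 2 were left out, and with outer or inner plate well as a term they were 26 and 10; the control myoblasts in DMSO all lay in outer wells and the DMSO myotubes in none.

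Some genes of the ribosome, or named like them, are left out by the name rule. Of 7 such genes, Rack1, Rpl22l1 and Rpl7l1 among them, 7 rose with piericidin (all genes 30.9%), 6 with antimycin (32.1%) and 7 with oligomycin (24.5%) in control myoblasts. Rpl22l1, the paralog of Rpl22, stood at 130, 143 and 150 CPM in DMSO and at 229, 277 and 283 with antimycin, a log2 fold change of 0.93 ± 0.09 (adjusted p = 1.1e-10), beside 0.56 for Rpl22. In post-mitotic cells it fell by 0.81, where Rpl22 did not pass, and 6 of the 7 fell (all genes 32.3%).

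Other mRNAs with a TOP tract, elongation and initiation factors for the most part, were counted for comparison. Of 17, 15 rose and 0 fell with piericidin, 15 and 2 with antimycin and 14 and 0 with oligomycin in control myoblasts, with medians of 0.45, 0.46 and 0.39. Of all genes 30.9% and 30.8%, 32.1% and 31.1%, and 24.5% and 26.3% did so. In LbNOX myoblasts the counts were 5 and 1 (all genes 5.01% and 3.86%), 8 and 4 (23.3% and 22.9%), and 13 and 0 (17.5% and 17.7%). With chloramphenicol 11 rose (all genes 4.83%), with oligomycin in post-mitotic cells 14 (10.6%) and in myotubes 14 (16.9%), and in post-mitotic cells against myoblasts 11 fell and 2 rose (32.3% and 31.3%). Eef1a1, the factor that brings aminoacyl-tRNA, rose by 0.51, 0.59 and 0.32 with the 3 inhibitors. Npm1, a nucleolar chaperone, rose by 0.75, 0.46 and 0.70 and was 1.39 lower on the log2 scale (-1.39) in post-mitotic cells. Gas5, a noncoding host of small nucleolar RNAs, stood at 81.9, 83.3 and 92.8 CPM in DMSO and at 433, 473 and 489 with antimycin (2.47 ± 0.07, adjusted p = 8.1e-24), and in LbNOX myoblasts at 74.3, 82.8 and 83.0 with antimycin beside 82.1, 92.6 and 98.6, where the groups overlapped. Its response to antimycin differed between the lines by -2.64 ± 0.09 (adjusted p = 1.8e-20).

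Of 12 genes that control ribosomal protein synthesis or are linked to it, Mdm2 among them, 7 rose with each inhibitor in control myoblasts (all genes 30.9%, 32.1% and 24.5%) and 2, 1 and 2 fell (30.8%, 31.1% and 26.3%). Larp1, which binds TOP mRNAs, rose by 0.61, 0.78 and 0.66. Eif4ebp1, the mTOR target that holds back eIF4E, rose by 1.85, 2.01 and 1.89, Sesn2, an inhibitor of mTOR signalling, by 2.49, 2.49 and 2.47, and Eif4ebp2 fell by 0.68, 1.05 and 0.73 on the log2 scale. Myc, a transcription factor with many ribosomal protein genes among its targets, stood at 59.9, 59.9 and 67.0 CPM in DMSO and at 338, 344 and 349 with antimycin in control myoblasts (2.5 ± 0.06, adjusted p = 5.0e-25). In LbNOX myoblasts it stood at 71.2, 75 and 78.0 in DMSO and at 31.2, 33.6 and 37.8 with antimycin, with no overlap and in the other direction (-1.11). The difference between the lines was -3.61 ± 0.09 (adjusted p = 1.4e-24). Mtor itself did not pass the test with any of the 3 inhibitors in control myoblasts (-0.20, 0.04 and 0.04).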

How the data were processed

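The authors made Smart-seq2 libraries (polyA RNA, not strand-specific) for 96 samples, sequenced them in pairs on 2 flow cells, demultiplexed with bcl2fastq 2.20.0.422, pseudo-aligned with kallisto 0.44 with bias correction to the Ensembl mouse transcriptome (GRCm38.p6) and the transgenes, and summed the estimated counts to genes with tximport. The deposited table holds these expected counts as whole numbers, not normalised, and they were used without rounding. kallisto divides reads that fit several transcripts, so counts of near-identical genes are uncertain.

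A fit kept genes that reached 16 counts in all replicates of 1 or more of its conditions. Tests were edgeR 4.0.16 quasi-likelihood F tests (R 4.3.3) with TMM scaling, with myoblasts, chloramphenicol, post-mitotic cells, myotubes, transduced myotubes and the states fitted apart, and p-values were adjusted by Benjamini-Hochberg over all genes of a comparison, at 0.05. SE is that of the log2 fold change. CPM are TMM-normalised. Copies were found with BLAST 2.17.0+. The authors used DESeq2; its Wald test (1.42.0) was an alternative here. Members and lists were chosen with earlier results of these data known. Named genes were up to 4 in each direction by log2 fold change among called members averaging 50 counts or more, and a list by role; Rpl8, Rpl13, Rpl4 and those named in low oxygen, combined and transduced myotubes were added after their values were seen. Of 87 replicate pairs 0 were identical. Well codes in the labels were read as positions on a 96-well plate. On simulated data 30% of genes changed 1.3-fold and 76% of those changed 2-fold were recovered with piericidin in control myoblasts, and 3% and 57% with chloramphenicol, where 11.8% of calls were false. Values of a few single genes are not reported here.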

Additional observations from a re-analysis of the deposited data

Results flagged for a closer look

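The response to an inhibitor differed between LbNOX and control myoblasts, or between myotubes and control myoblasts, by an interaction term with an adjusted p under 0.05 (edgeR). No group held 4 to 10 samples, so no single sample was tested against its group. Between LbNOX and control myoblasts 43 members differed for piericidin (37 lower and 6 higher, beside 22% and 22.3% of all genes), 53 for antimycin (51 and 2, beside 26.8% and 24.7%) and 4 for oligomycin (4 and 0, beside 4.18% and 3.80%). The 4 for oligomycin were 5.19% of the members, near the share over all genes, and the median difference of the members was -0.01. Between myotubes and control myoblasts 30 members differed for piericidin (25 and 5, beside 21.3% and 25.2%), 46 for antimycin (46 and 0, beside 22.5% and 25.4%) and 27 for oligomycin (27 and 0, beside 13.2% and 15.8%). Myotubes and control myoblasts differ also by lentiviral luciferase, doxycycline and serum, which cannot be told apart from the state. Values are those of single rows unless called sums, which include near-identical copies. For piericidin in LbNOX myoblasts, the differences in log2 fold change were -2.12 for Rpl12, -0.75 for Rps12, -0.72 for Rpl10a, -0.59 for Rpl13a and -0.58 for Rps6. The sums of Rpl12 and Rps12, whose rows hold few of their counts, gave -0.57 and -0.29. The rows gave 0.71 for Rpl37a, 0.51 for Rps26, 0.40 for Rpl36a and 0.40 for Rpl41, and -2.23 for Gas5 and -1.81 for Myc among related genes.

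For antimycin in LbNOX myoblasts they were -2.66 for Rpl12, -0.96 for Rps12, -0.93 for Rpl10a, -0.91 for Rpl3 and -0.47 for Rps6, and 0.32 for Rps27l and 0.29 for Rpl27. The sums gave -0.62 for Rpl12, -0.30 for Rps12 and -0.06 for Rpl27, which no longer passed (adjusted p = 0.58 in edgeR's test). Among related genes they were -3.61 for Myc, -2.64 for Gas5, -1.11 for Sesn2, -0.92 for Eif4ebp1, -0.69 for Hnrnpa1, -0.66 for Rpl22l1 and -0.56 for Npm1. For oligomycin they were -0.66 for Rpl12, -0.28 for Rpl10a and -0.13 for Rplp0, and as sums -0.16, -0.20 and -0.13, of which only Rpl10a passed (adjusted p = 0.069, 0.0058 and 0.090 in edgeR's test). For antimycin in myotubes against control myoblasts they were -3.32 for the Rps2 row (sum -2.68), -1.54 for the Rpl12 row (sum -0.74), -0.97 for Rpl10a and -0.79 for Rpl3.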

How the results depend on the processing

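DESeq2 size factors and TMM without the members kept all 32 counts of members called within 1.5 times. Adding copies and removing a trend with length were chosen after seeing the data. On total counts the counts were 42 (antimycin, control myoblasts), 3 (piericidin, LbNOX), 38 (antimycin, mitoLbNOX), 29 (antimycin response, LbNOX against control), 3, 21 and 8 (piericidin, BAM15 and 5% oxygen, myotubes), 9 (piericidin, post-mitotic), 0 (chloramphenicol, LbNOX), 13 (oligomycin, GFP myotubes), 55 (myotubes against post-mitotic), and 11 and 3 (antimycin and oligomycin responses, myotubes against myoblasts). Without a count filter they were 33, 37 and 1 (piericidin in LbNOX, mitoLbNOX and NDI1), 23 (piericidin, myotubes), 16 (oligomycin in 5% oxygen against oligomycin) and 12 (chloramphenicol, LbNOX). With only the groups compared they were 5 (piericidin, LbNOX), 2 (oligomycin response, LbNOX), 27 (piericidin, myotubes), 4 (oligomycin in 5% oxygen) and 0 (chloramphenicol, LbNOX). DESeq2's Wald test gave 19 and 35 (piericidin, myotubes and post-mitotic) and 5 (chloramphenicol, LbNOX). Plate well as a term gave 5 (oligomycin with piericidin), 0 (chloramphenicol, LbNOX), 26 and 10 (antimycin and oligomycin responses, myotubes), and could not be fitted for post-mitotic cells alone, all in outer wells. The length trend gave 10 (oligomycin response, LbNOX) and 32 (oligomycin, LbNOX myotubes). Sums with copies gave 15 (piericidin, mitoLbNOX), 23 (piericidin, myotubes), 14 (oligomycin in 5% oxygen) and 30 (oligomycin, LbNOX myotubes). The share of counts in DMSO was 4.58%, 3.78% and 3.19% with rows named as pseudogenes and 5.30%, 4.38% and 3.68% with copies, in myoblasts, post-mitotic cells and myotubes. The cause of these changes was not tested.

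Replicate numbers did not pair the samples: of 538 same-numbered pairs, counted within each fit so that some recur, 24.7% correlated above 0.1 (median 0.01, from -0.31 to 0.35). With the number as a replicate block, the count with chloramphenicol in LbNOX myoblasts was 0, and no other total of members called moved by over 1.5 times; in 5% oxygen 1 member was then called lower.

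Some values changed sign. With copies, Rpl5 was 0.36, 0.36 and 0.46 (piericidin, antimycin, oligomycin, control myoblasts), 0.10, 0.05 and 0.38 (LbNOX), 0.13 and 0.18 (piericidin and antimycin, mitoLbNOX), 0.33 (chloramphenicol) and -0.26 (post-mitotic against myoblasts). Rpl27 was 0.11 (antimycin, control), 0.06 (mitoLbNOX) and -0.06 (response, LbNOX against control), and Rpl12 and Rps12 were 0.21 and 0.18 (antimycin, LbNOX). On total counts Rpl11 and Rps4x were -0.10 and -0.10 (antimycin, control myoblasts), and the median of members was -0.02 (antimycin, LbNOX), -0.02 (oligomycin in 5% oxygen against oligomycin) and 0.02 (piericidin response, myotubes). The median was -0.01 for antimycin in LbNOX after the length trend was removed, and leaving out 1 replicate number it ran from -0.09 to 0.06 (oligomycin with BAM15) and from -0.01 to 0.09 (oligomycin in 5% oxygen).

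Leaving out the libraries of 1 replicate number gave these ranges of members called; where a group of 2 lost 1, the lone sample was assumed to vary like the others. In control myoblasts they were 61 to 62 (piericidin), 60 to 73 (antimycin) and 54 to 59 (oligomycin), in LbNOX 2 to 29, 15 to 29 and 49 to 70, in mitoLbNOX 6 to 15 and 47 to 69, and in NDI1 0 to 0. The responses in LbNOX against control gave 31 to 45, 37 to 54 and 0 to 3, and the lines in DMSO 0 to 0. In myotubes they were 4 to 8 (piericidin), 2 to 3 (antimycin), 14 to 37 (oligomycin), 13 to 16 (BAM15) and 12 to 25 (5% oxygen). Against oligomycin they were 2 to 8 (with piericidin), 6 to 15 (with BAM15) and 5 to 12 (in 5% oxygen). In post-mitotic cells they were 1 to 4 (piericidin) and 39 to 49 (oligomycin). With chloramphenicol they were 13 to 24 (control) and 0 to 0 (LbNOX), and with oligomycin in transduced myotubes 8 to 23 (GFP) and 9 to 17 (LbNOX). The states gave 51 to 56 (post-mitotic against myoblasts) and 20 to 28 (myotubes against post-mitotic), and the responses in myotubes against myoblasts 20 to 27, 25 to 50 and 8 to 32.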
